A study of Mus musculus with 8 samples.

Results

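Sites bound by Qki-5 were compared between oligodendrocytes isolated from mouse brain and oligodendrocytes differentiated in culture. Oligodendrocytes are the cells that wrap axons of the brain in myelin. Members were all peaks of the 2 Qki-5 lists on chromosomes 1 to 19, X and Y, 38550 of the 109649 peaks in the 6 lists of the series: 8375 from the isolated cells and 30175 from the differentiated cells. A peak of one list was paired with a peak of the other where their centres lay less than 200 bp apart. Paired peaks are called shared sites, and the rest isolated-alone or differentiated-alone sites.

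The series mapped Qki-5, the nuclear receptor PPARb, its HA tag and RNA polymerase II (Pol II) by chromatin immunoprecipitation with sequencing (ChIP-seq), which recovers the DNA that lies beside a protein in fixed cells. The isolated cells came from brains of C57BL6 mice, were captured with magnetic beads against O4, a surface lipid of the oligodendrocyte lineage, and were used at passage 0. The differentiated cells descended from hybrid FvB/C57BL6 neural stem cells and were used at passage 7 after culture in Neurobasal medium with B-27, GlutaMAX, IGF-1 and the thyroid hormone T3. They carried ectopic PPARb with an HA tag, and what drives it is not described in the sources used here. A home-made Qki-5 antibody was used on both. Strain, culture, passage and introduced PPARb all differ along with the source of the cells, so their contributions cannot be told apart. Each group had 1 library, so differences below have no replicate check, and every interval covers counting error only. ChIP-seq of a mixed population also cannot tell fewer bound cells from weaker binding per cell. Peak lists do not measure expression, so the cell labels could be set only beside peaks at marker genes, which are given with the gene lists below.

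Quaking, encoded by Qk, is an RNA-binding protein of the STAR family. Its isoform Qki-5 stays in the nucleus, where it takes part in splicing, and the family is known in oligodendrocytes for its action on transcripts of myelin proteins. A ChIP-seq peak does not say whether the protein touches DNA itself or is held there by RNA or by another protein. PPARb, encoded by Ppard, binds DNA as a partner of the retinoid X receptors and responds to fatty acids.

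The isolated-cell library held 21832339 tags and the differentiated-cell library 18078176, and 0.849% and 3.66% of them lay in peaks. Peak height is the authors' tag number scaled to 10000000 tags per library, so 1 tag is worth 0.458 in the isolated-cell library and 0.553 in the differentiated-cell library. The median peak held 20 tags in each, a height of 9.16 in isolated cells and 11.1 in differentiated cells. Each list was called against the input library of its own cell kind, which removed 4753 of 13435 candidate peaks in isolated cells and 4613 of 38312 in differentiated cells. The local background removed 302 more in isolated cells and 3520 in differentiated cells. A peak missing from a list can therefore be a candidate that one of these filters took out.

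Of the isolated-cell peaks 5819, or 69.5%, had a partner in differentiated cells (95% exact Clopper-Pearson interval 68.5 to 70.5%). The same shared sites made up 19.3% of the differentiated-cell peaks (18.8 to 19.7%). This left 2556 isolated-alone and 24356 differentiated-alone sites. Paired centres lay a median of 52 bp apart (quartiles 24 and 94 bp), and 48.8% of pairs were within 50 bp. Just inside the pairing limit, 435 isolated-cell peaks had the nearest differentiated-cell centre from 150 to under 200 bp away, with a median height of 9.62. Just outside it, 232 had one from 200 to under 250 bp away, with a median height of 8.93.

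Of these sites 8 are printed below because they show the letters under each class of peak at starts of genes that the results turn on. Kmt2a encodes a histone methyltransferase and Hjurp a chaperone of the centromeric histone, and both were among the tallest shared sites. Sirt2 encodes a deacetylase abundant in myelin. Tspan2 (a tetraspanin of myelin), Gjb1 (connexin 32, a gap junction protein of myelinating cells) and Msmo1 (a sterol oxidase of cholesterol synthesis) had isolated-alone sites. Haus6 (a subunit of the augmin complex of the spindle) and Apaf1 (the core of the apoptosome) had the tallest differentiated-alone peaks at gene positions. The sequences are RefSeq's of the build GRCm38.p6, the same as the mm10 of the files, 5′ to 3′ on the strand of the gene, and each runs the length of the peak: the differentiated-cell peak for Kmt2a, Haus6 and Apaf1, and the isolated-cell peak for the rest. Capitals mark every match, on either strand, to the 13 motifs searched, which are spelled out with the promoter results.
Kmt2a, shared, chr9:44881315-44881514, minus strand: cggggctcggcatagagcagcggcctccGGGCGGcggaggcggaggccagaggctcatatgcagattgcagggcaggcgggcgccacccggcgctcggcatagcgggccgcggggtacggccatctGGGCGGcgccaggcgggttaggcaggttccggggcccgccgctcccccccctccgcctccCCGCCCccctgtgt
Hjurp, shared, chr1:88277546-88277745, minus strand: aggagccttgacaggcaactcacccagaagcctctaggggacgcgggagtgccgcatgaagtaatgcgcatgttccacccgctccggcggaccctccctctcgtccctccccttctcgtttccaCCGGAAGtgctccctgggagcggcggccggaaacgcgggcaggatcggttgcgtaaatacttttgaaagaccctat
Sirt2, shared, chr7:28766530-28766729, plus strand: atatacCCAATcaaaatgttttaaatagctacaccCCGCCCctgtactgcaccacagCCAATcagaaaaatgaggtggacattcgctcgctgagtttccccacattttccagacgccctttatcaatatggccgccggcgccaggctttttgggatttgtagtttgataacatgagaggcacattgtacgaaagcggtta
Tspan2, isolated-alone, chr3:102734600-102734799, plus strand: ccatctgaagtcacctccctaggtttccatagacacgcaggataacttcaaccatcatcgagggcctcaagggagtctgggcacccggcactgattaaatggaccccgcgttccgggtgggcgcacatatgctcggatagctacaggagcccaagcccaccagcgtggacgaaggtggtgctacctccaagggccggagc
Gjb1, isolated-alone, chrX:101383564-101383763, plus strand: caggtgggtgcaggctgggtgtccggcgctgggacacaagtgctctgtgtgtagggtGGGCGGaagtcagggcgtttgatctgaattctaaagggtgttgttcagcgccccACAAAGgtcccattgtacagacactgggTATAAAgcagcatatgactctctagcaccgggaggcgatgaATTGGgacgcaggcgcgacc
Msmo1, isolated-alone, chr8:64733620-64733819, minus strand: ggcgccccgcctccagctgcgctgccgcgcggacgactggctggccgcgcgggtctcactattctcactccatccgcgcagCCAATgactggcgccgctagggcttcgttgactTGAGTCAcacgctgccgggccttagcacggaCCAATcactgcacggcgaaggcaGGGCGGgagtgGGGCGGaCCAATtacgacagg
Haus6, differentiated-alone, chr4:86612053-86612252, minus strand: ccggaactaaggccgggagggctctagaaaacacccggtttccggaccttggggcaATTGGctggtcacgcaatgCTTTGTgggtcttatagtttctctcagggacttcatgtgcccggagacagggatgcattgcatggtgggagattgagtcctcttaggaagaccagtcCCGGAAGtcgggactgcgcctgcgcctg
Apaf1, differentiated-alone, chr10:91082762-91082961, minus strand: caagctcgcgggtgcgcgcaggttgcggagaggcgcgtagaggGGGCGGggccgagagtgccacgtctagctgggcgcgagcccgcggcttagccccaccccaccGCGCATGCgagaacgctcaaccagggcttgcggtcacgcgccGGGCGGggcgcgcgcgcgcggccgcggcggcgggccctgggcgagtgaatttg

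The Hjurp site holds the ETS letters and no other match, and the Haus6 site holds them beside the NF-Y and SOX letters. The Apaf1 site holds the NRF1 letters and the SP letters. In the Kmt2a site only the SP letters matched. The Sirt2 site holds SP and NF-Y letters, and the Msmo1 site these and the AP-1 letters. The Gjb1 site is the only one of these with the TATA letters. None of the 13 motifs matched in the Tspan2 site. A match describes the letters and does not show that a factor binds there.

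Shared sites lay mostly at gene starts, and sites of 1 list mostly did not. A gene position here is the annotated start of each of 17492 protein-coding genes, and either end of the 4395 others, whose strand is not in the tables used, and a peak belongs to it within 1000 bp. Of the shared sites 79.7% lay at a gene position (interval 78.6 to 80.7%), against 33.8% of isolated-alone (32.0 to 35.7%) and 24.9% of differentiated-alone sites (24.4 to 25.4%). Among isolated-cell peaks at gene positions 84.3% had a partner (4638 of 5502), and the share was 40.6% for peaks inside genes (655 of 1615) and 41.8% outside them (526 of 1258). Among differentiated-cell peaks it was 43.3% at gene positions (4637 of 10702), 6.25% inside genes (653 of 10442) and 5.86% outside them (529 of 9031).

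Around starts with a known strand, shared centres of isolated cells had a median of -29 bp, upstream of the start, and 78.3% of those within 1000 bp lay within 150 bp. Isolated-alone centres had a median of -12.5 bp with 54.7% within 150 bp, and differentiated-alone centres -9 bp with 60.0%. The far ends of genes held few sites of any class: 0.67% of shared, 1.33% of isolated-alone and 1.18% of differentiated-alone sites lay within 1000 bp of a far end and not of a start.

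**Figure D1:**
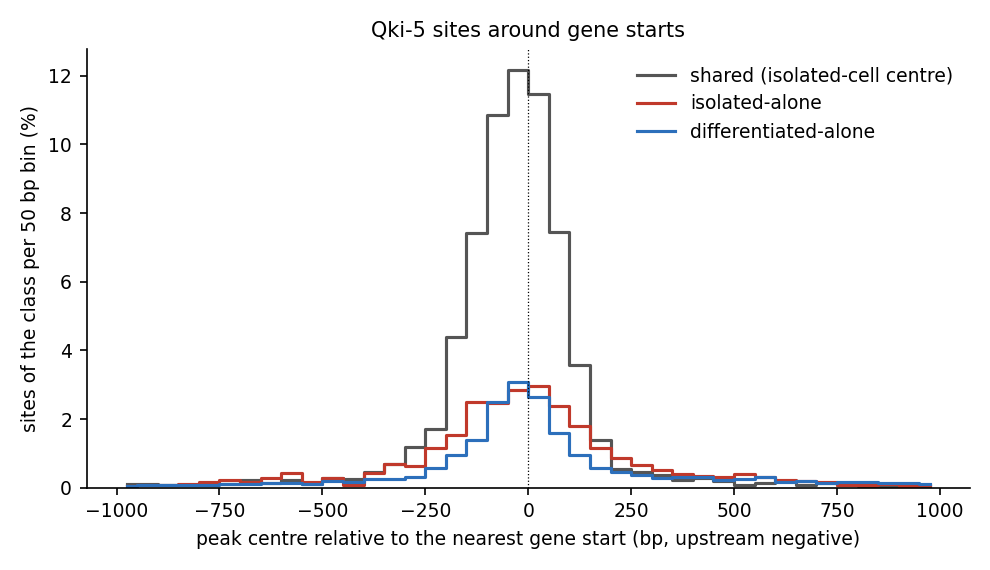
Distance of Qki-5 peak centres from the nearest gene start with a known strand, in bins of 50 bp; upstream is negative. Lines give the percentage of all sites of a class that fall in a bin, for shared sites (isolated-cell centres), isolated-alone and differentiated-alone sites. The shared sites form the highest peak, just upstream of the start, where 67.7% of them lie within 1000 bp, against 27.5% of isolated-alone and 20.3% of differentiated-alone sites.

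Isolated-alone is a mixed class. A differentiated-cell Qki-5 peak that missed the pairing limit lay from 200 to under 500 bp away from 600 of the 2556 sites (23.5%), and from 447 of the 864 at gene positions (51.7%). A PPARb, HA or Pol II peak of the differentiated cells lay under 200 bp from 33.3% of the isolated-alone sites, 64.7% of those at gene positions and 17.2% of the others. Neither was found for 1584 sites (62.0%), which were 26.9% of those at gene positions and 79.9% elsewhere. No differentiated-cell Qki-5 centre lay within 5000 bp of 1412 isolated-alone sites (55.2%), and 16.9% of these were at gene positions. By contrast 90.9% of differentiated-alone sites had no isolated-cell centre within 5000 bp.

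Tall peaks had a partner more often than low ones in both lists. In 5 classes of equal size, lowest to tallest, of isolated-cell peaks the share with a partner was 40.6%, 56.8%, 74.4%, 84.4% and 91.2%. In the differentiated-cell list it was 2.58%, 5.45%, 13.3%, 26.9% and 48.2%. Of the 100 tallest peaks 96 had a partner in the isolated-cell list and 83 in the differentiated-cell list. The contrast by place was also seen within classes of height: in the tallest 92.7% of isolated-cell peaks at gene positions had a partner and 78.7% of the others, and for differentiated-cell peaks these were 67.7% and 18.4%. The median height of isolated-cell peaks was 10.5 at shared sites and 7.33 at isolated-alone sites, and that of differentiated-cell peaks 16.0 at shared and 9.96 at differentiated-alone sites. By fold over input the contrast was absent in the isolated-cell list, with a median of 6.71 in both classes, and smaller in the differentiated-cell list, with 13.7 at shared and 10.9 at differentiated-alone sites. Median input tags at isolated-cell peaks were 3.6 at shared and 2.7 at isolated-alone sites, and at differentiated-cell peaks 1.9 in both classes.

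**Figure D2:**
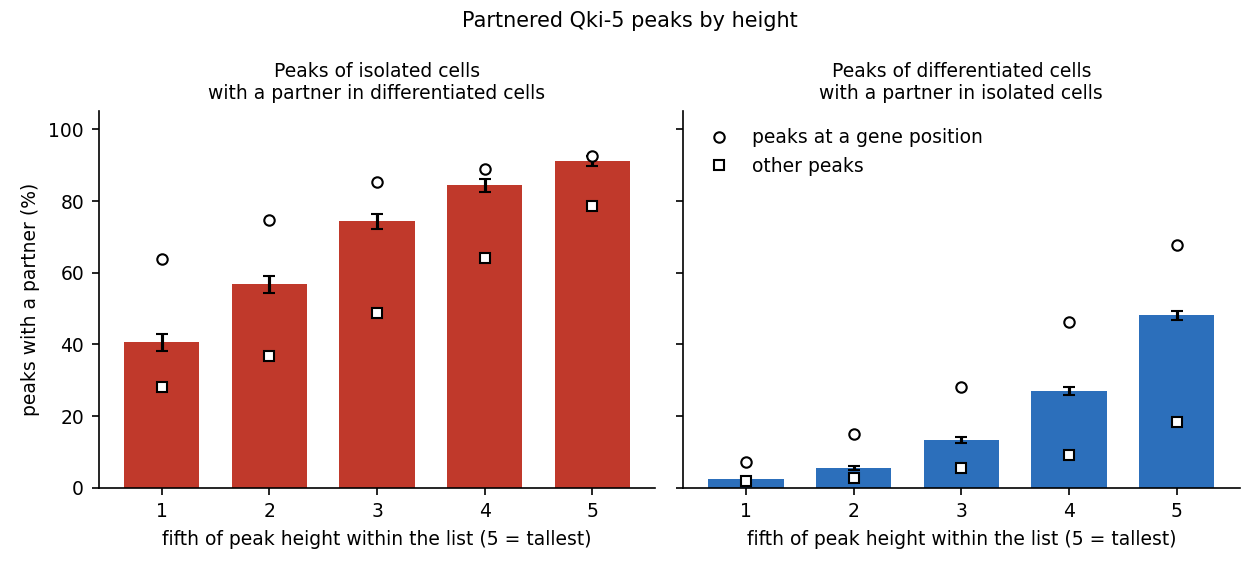
Percentage of Qki-5 peaks with a partner in the other cell kind in 5 classes of peak height within each list, isolated cells on the left and differentiated cells on the right. Bars give all peaks with 95% exact Clopper-Pearson intervals, circles peaks at gene positions and squares the others. Bars climb to 91.2% in isolated cells and 48.2% in differentiated cells, and circles lie above squares in all 5 classes of both lists.

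At shared sites the 2 cell kinds ranked the same sites alike to a moderate degree. Spearman's rank correlation between isolated-cell and differentiated-cell heights was 0.55 over the 5819 sites, 0.57 at gene positions, 0.33 inside genes and 0.41 outside them, as a description across sites that share their libraries. By fold over input it was 0.04. Of the 100 tallest shared sites of each list 26 were the same, and of the 1000 tallest 462. The isolated-cell height was a median of 0.663 times the differentiated-cell height (5th to 95th percentile 0.386 to 1.10) and was the higher of the 2 at 505 sites, or 8.68%. Both lists hold only peaks past the caller's thresholds, and the libraries differ in the share of tags in peaks, so these ratios describe the 2 libraries.

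Kmt2a had the tallest isolated-cell peak, 42.1 (95% exact Poisson interval 34.0 to 51.7), paired with 58.1 in differentiated cells (47.5 to 70.3). Hjurp had 29.8 in isolated and 52.5 in differentiated cells, with centres 2 bp apart. Rpl27, a protein of the large ribosomal subunit, had 30.7 in isolated and 24.9 in differentiated cells. Cltc, the clathrin heavy chain, had 29.3 in isolated and 32.1 in differentiated cells. Wwox, a WW-domain oxidoreductase, had 34.4 in isolated cells (27.0 to 43.1) and 20.5 in differentiated cells (14.4 to 28.2). These genes were taken by their isolated-cell height among shared sites. Their differentiated-cell heights were not ranked for, but each site also had to hold a called differentiated-cell peak. The other 5 of the 10 tallest shared sites, at Mrpl47, Neurl4, Amdhd2, Ostc and Cenpu, had 28.4 to 29.8 in isolated cells and 21.0 to 34.3 in differentiated cells.

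Pde8a, a cyclic AMP phosphodiesterase, stood furthest apart in favour of isolated cells, 19.2 there (13.9 to 26.0) and 6.64 in differentiated cells (3.43 to 11.6), 89.5 percentile points between its places in the lists. Arl8b, a small GTPase of lysosome transport, had 22.4 in isolated cells and 8.85 in differentiated cells. Sirt6, a chromatin deacetylase, had 18.3 in isolated and 9.40 in differentiated cells. Also among the 10 sites with the largest difference this way were Mcts2, Tmem202 (beside Hexa, a lysosomal hexosaminidase), Csrp1, Tasor, Trmt61a, Nsun2 and Ap4e1. Ranked by fold over input in place of height, the percentile difference, isolated minus differentiated, turned negative for 5 of these 10: Arl8b (-17.8), Sirt6 (-69.7), Tmem202 (-2.13), Csrp1 (-5.30) and Trmt61a (-36.1).

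In the other direction Phyhipl had 5.95 in isolated cells (3.17 to 10.2) and 28.8 in differentiated cells (21.5 to 37.7). Ccno, a cyclin known from multiciliated cells, had 5.50 in isolated and 21.6 in differentiated cells. Ncam1, the neural cell adhesion molecule, had 5.95 in isolated and 22.1 in differentiated cells, and Cd63, a tetraspanin of late endosomes, 5.95 in isolated and 21.6 in differentiated cells. The remaining 6 were 0610010F05Rik, Sardh, Pigk, Rngtt, Ehmt2 and Limch1, each with 5.50 in isolated cells, 12 tags, and 18.3 to 19.9 in differentiated cells. Ranked by fold over input, the same difference turned positive for Ccno (9.20) and Pigk (31.8). These ranks are places within lists of unequal length and show order, not change. The sites named for a rank difference, in either direction, were picked by these same heights. Their wide differences, and any intervals that stay apart, follow in part from that choice.

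**Figure D3:**
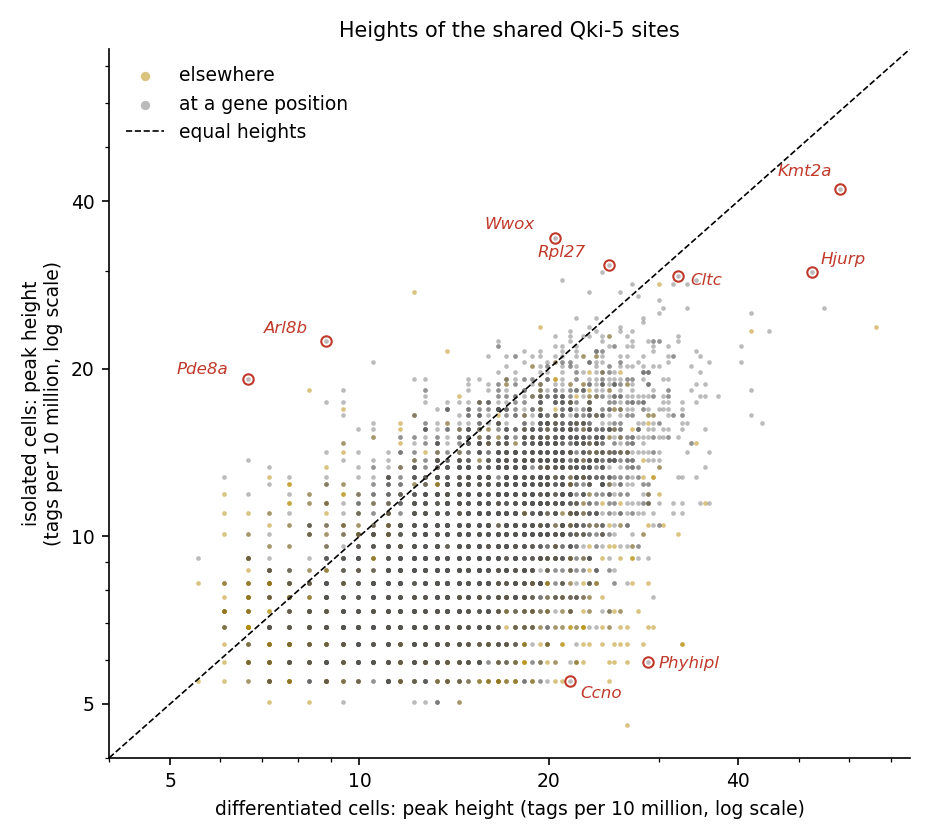
Height of each of the 5819 shared Qki-5 sites in isolated cells (vertical) against differentiated cells (horizontal), in tags per 10000000 on log scales, with sites at gene positions in grey and others in yellow. The dashed line marks equal heights. Most points lie below it, as 8.68% of sites are higher in isolated cells, and the circled genes are among those named in the text.

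Neat1, a long noncoding RNA of paraspeckles, and Malat1, one of nuclear speckles, lie side by side on chromosome 19 and were chosen here after their values were seen. Right end here means the end with the higher coordinate, whatever the strand of the gene. An isolated-alone peak of 20.2 (14.6 to 27.1), with a fold over input of 16.4, lay 1269 bp past the right end of Neat1, and the nearest differentiated-cell Qki-5 centre was 24617 bp away. At Malat1 an isolated-cell peak of 20.6 lay 936 bp past the right end and a differentiated-cell peak of 21.0 lay 10 bp past it, 926 bp apart and so not paired. Fold over the local background was 4.83 at the isolated-cell peak by Neat1 and 4.82 at that by Malat1. The caller required 4, and the median of isolated-alone sites was 6.85.

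At gene positions, 9 of the 10 tallest isolated-alone peaks had a differentiated-cell Qki-5 peak 203 to 485 bp away. They were at Atp6v1d (a proton pump subunit, 22.9), Tcf3 (an E-protein transcription factor, 22.0), Eif4b (a translation factor, 20.6), Wdr34, Naa38, Mnt, Ddx5, Usp20 and Tom1l2. Wdfy2 was the exception, with 18.8 (13.5 to 25.5) and the nearest differentiated-cell centre 42287 bp away. Msmo1, further down the list, had 16.5 (11.5 to 22.8) and the nearest such centre 40747 bp away. The 10 tallest differentiated-alone peaks at gene positions reached 29.9 to 37.6, led by Haus6 (37.6, 29.2 to 47.7) and Apaf1 (37.1, 28.7 to 47.1), and for Cic alone among them an isolated-cell peak lay within 1000 bp, 547 bp away. Away from gene positions the differentiated-alone list held taller peaks still, 82.4 on chromosome Y and 65.8 on chromosome 8, at only 4.74-fold and 5.21-fold over input. The isolated-cell list held no peak on chromosome Y, so every differentiated-cell peak there was differentiated-alone.

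By gene, 5191 of 21887 protein-coding genes (23.7%) had a shared site at their gene position. Another 273 (1.25%) had isolated-alone sites and no differentiated-cell peak, 4841 (22.1%) had differentiated-alone sites and no isolated-cell peak, and 552 (2.52%) had peaks of both lists that were not paired. An isolated-cell peak of any class was at 27.5% of genes and a differentiated-cell peak at 48.4%. Among the 6016 genes with an isolated-cell peak 825, or 13.7%, had no shared site. These shares are the background for the gene lists that follow, whose members were counted and not tested.

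Genes of protein synthesis, splicing and folding had shared sites at a large share of their members. Of 40 cytosolic ribosomal protein genes 33 had an isolated-cell peak and all 40 a differentiated-cell peak, and 31 had a shared site. The tallest after Rpl27 were Rpl32, with 23.4 in isolated and 44.8 in differentiated cells, Rps19, with 21.1 in isolated and 22.1 in differentiated cells, and Rpl4, with 20.2 in isolated and 19.4 in differentiated cells. Of 36 splicing factor genes 33 had an isolated-cell peak, 34 a differentiated-cell peak and 26 a shared site. Rbm5, a splicing regulator, had 21.5 in isolated and 23.8 in differentiated cells, Srsf2 had 20.6 in isolated and 20.5 in differentiated cells, and Ptbp1, a repressor of exons, 20.2 in isolated and 17.1 in differentiated cells. Among 27 heat shock and chaperonin genes 19 had an isolated-cell peak, each gene with a shared site, and 26 a differentiated-cell peak; Hspd1 and Hspe1, mitochondrial chaperonins that share a promoter, had 22.9 in isolated and 32.1 in differentiated cells. Of 24 citric acid cycle genes 17 had an isolated-cell peak, all 24 a differentiated-cell peak and 14 a shared site, with Sdhb (a subunit of succinate dehydrogenase) at 17.4 in isolated and 18.3 in differentiated cells.

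Lipid genes were counted because PPARb is known to act on them and myelin is rich in lipid. Of 24 cholesterol synthesis genes 14 had an isolated-cell peak, 22 a differentiated-cell peak and 12 a shared site. Mvk, mevalonate kinase, had 22.0 in isolated and 24.9 in differentiated cells, and Hmgcs1, the cytosolic HMG-CoA synthase, had 18.8 in isolated and 23.2 in differentiated cells. Cyp51, the lanosterol demethylase, had 15.6 in isolated and 17.7 in differentiated cells. Of 25 sphingolipid and galactolipid genes 12 had an isolated-cell peak, 18 a differentiated-cell peak and 11 a shared site, and of 34 fatty acid synthesis genes 15 had an isolated-cell peak, 25 a differentiated-cell peak and 12 a shared site. Fasn, fatty acid synthase, had 11.9 in isolated and 19.9 in differentiated cells. Of 28 fatty acid oxidation genes 12 had an isolated-cell peak and 24 a differentiated-cell peak, 11 of them shared. Hadha and Hadhb, subunits of the trifunctional protein that share a promoter, had 16.9 in isolated and 22.7 in differentiated cells.

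Myelin genes had few shared sites at their gene positions. Of 30, 11 had an isolated-cell peak at their gene position, 8 had a differentiated-cell peak and 3 had a shared site. In 8 of those 11 genes (72.7%) the isolated-cell peak was not shared, beside 13.7% of all genes with such a peak. Isolated-alone peaks were at Mobp (8.24), a protein of compact myelin, Mag (5.95), the adhesion protein facing the axon, Gjb1 (7.33), Tspan2 (7.33), Pllp (plasmolipin, 6.87), Hapln2 (a link protein of nodes, 5.95) and Gal3st1 (the sulfatide synthase, 5.95). For Cnp, an enzyme of noncompact myelin, an isolated-alone peak of 8.70 lay 750 bp from a differentiated-alone peak of 11.1. The shared sites were at Sirt2, with 15.1 in isolated and 14.4 in differentiated cells, Fa2h, the fatty acid hydroxylase of myelin galactolipids, with 8.70 in isolated and 8.85 in differentiated cells, and Plekhb1, with 5.04 in isolated and 12.2 in differentiated cells. The isolated-alone peaks were low: each but that of Cnp had 13 to 18 tags, near the isolated-cell caller's threshold of 13. Low peaks had a partner less often in the whole list. In the 2 lowest of the 5 height classes 63.8% and 74.8% of isolated-cell peaks at gene positions had one. The part of height in the myelin share was not tested.

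Counted over the whole gene span and 1000 bp around it, 21 of 30 myelin genes (70.0%) had an isolated-cell peak, beside 32.3% of all genes, and 17 had a differentiated-cell peak, beside 57.2%. A shared site was in 8 of 30 (26.7%), the same share as of all genes (26.7%). No shared site was in 13 of those 21 (61.9%), beside 17.3% of all genes with an isolated-cell peak counted this way. Such counts grow with gene length, whose median was 19923.5 bp for the list and 17169 bp for all genes. They also add peaks inside genes, of which 40.6% had a partner over the whole isolated-cell list, against 84.3% at gene positions. The part of place and height in the myelin shares was not tested. Mbp, myelin basic protein, held 2 shared, 2 isolated-alone and 3 differentiated-alone sites, all inside the gene; its shared sites had 9.62 and 8.24 in isolated cells against 12.2 and 14.4 in differentiated cells. Mog, Mal, Ermn and Cldn11 had none of either list in the gene or within 1000 bp.

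Mature oligodendrocyte genes gave 9 of 25 with an isolated-cell peak, 12 with a differentiated-cell peak and 5 with a shared site. S1pr5 (a sphingosine phosphate receptor, 9.62), Gpr37 (9.16) and Tubb4a (a tubulin, 8.70) had isolated-alone sites. Ndrg1 had 10.5 in isolated and 9.40 in differentiated cells, and Car2, a carbonic anhydrase, had 9.16 in isolated and 8.85 in differentiated cells. Differentiated-alone sites with no isolated-cell peak were at 6 of the 25 genes, the tallest at Carns1 (carnosine synthase, 19.9). Isolated-alone sites with no differentiated-cell peak were at 3. Adamts4 had, at its gene-position site, 5.95 in isolated cells (3.17 to 10.2) and 15.5 in differentiated cells (10.3 to 22.4). A second shared site of Plekhb1, inside the gene, had 7.33 in isolated cells (4.19 to 11.9) and 27.7 in differentiated cells (20.5 to 36.5). Over all 5819 shared sites the isolated-cell height was a median of 0.663 times the differentiated-cell height, and the higher at only 8.68%. How often height intervals stay apart over all shared sites was not counted.

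**Figure D4:**
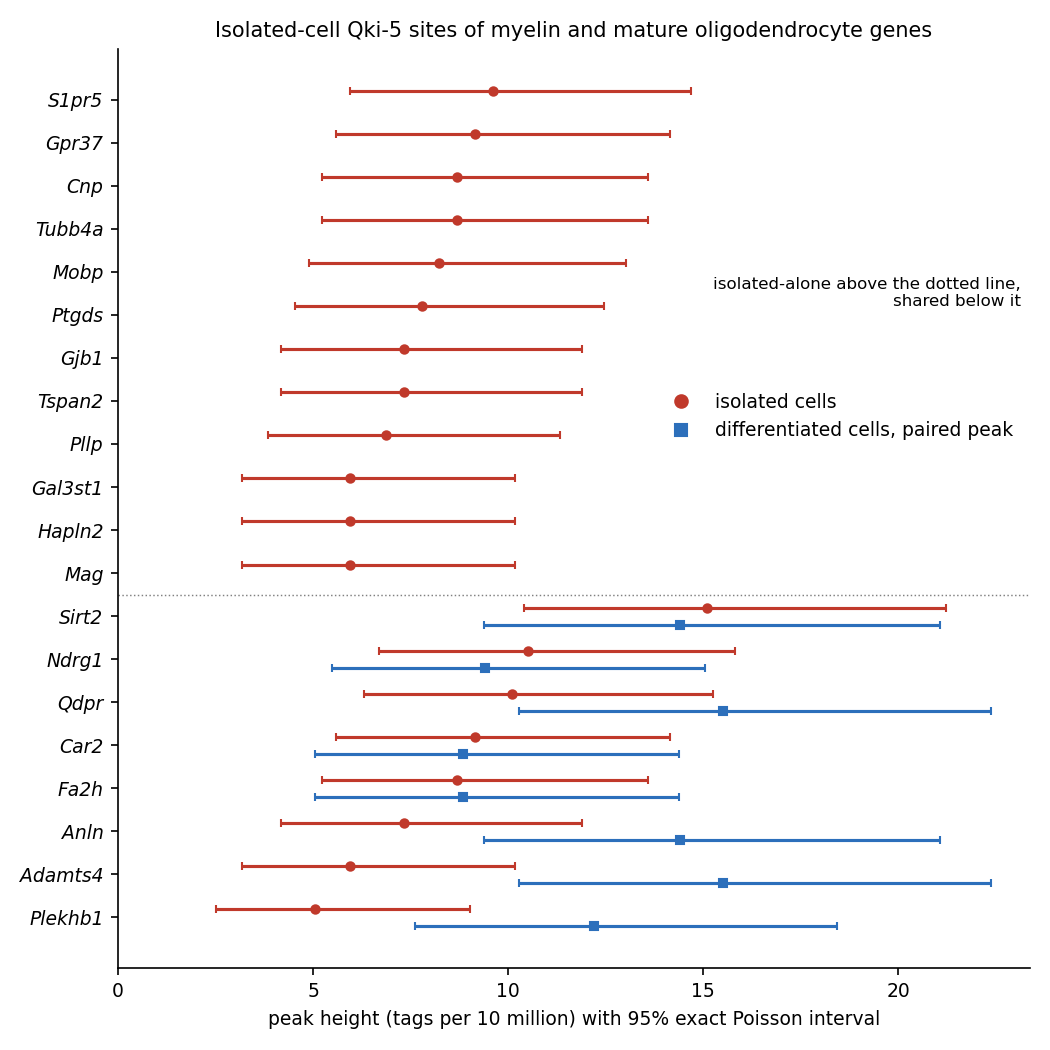
Heights of isolated-cell Qki-5 sites at gene positions of myelin and mature oligodendrocyte genes in tags per 10000000, with 95% exact Poisson intervals; circles are isolated cells and squares the paired differentiated-cell peaks. Isolated-alone sites stand above the dotted line and shared sites below it. The isolated-cell sites shown stand between 5.04 and 15.1.

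**Figure D5:**
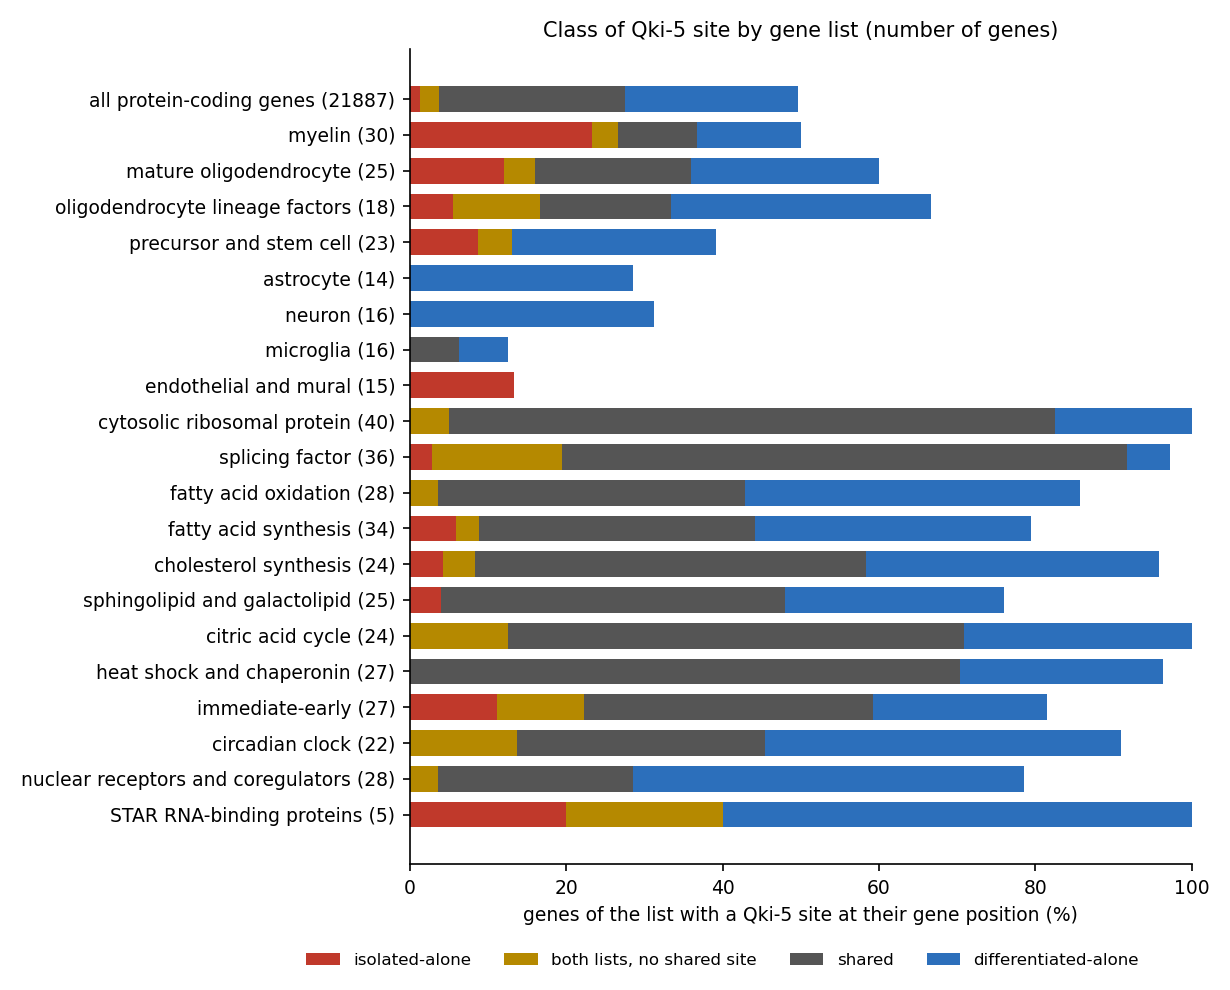
Genes with a Qki-5 site at their gene position as a percentage of each gene list, split by class of site, with all protein-coding genes in the top row and the number of genes in parentheses. Ribosomal protein genes have the longest shared segment, 77.5%, and the isolated-alone segment of myelin genes stands for 7 of 30.

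Of 18 oligodendrocyte lineage factors 6 had an isolated-cell peak, 11 a differentiated-cell peak and 3 a shared site: Chd8, a chromatin remodeller, with 15.6 in isolated and 16.6 in differentiated cells, Yy1, with 15.6 in isolated and 14.4 in differentiated cells, and Smarca4, with 13.7 in isolated and 21.0 in differentiated cells. Olig2 and Sox10, the lineage's defining transcription factors, had isolated-alone peaks of 7.33 and 7.79 at 2537 and 2043 bp from the nearest gene position and no differentiated-cell peak within 5000 bp of the gene. Olig1 had a shared site 3607 bp from a gene position, 7.79 in isolated cells (4.54 to 12.5) and 21.0 in differentiated cells (14.9 to 28.9).

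Genes of other cell types were counted over the gene span and 1000 bp around it. Of all genes 32.3% had an isolated-cell peak counted this way, and 57.2% a differentiated-cell peak. None of 14 astrocyte genes had an isolated-cell peak there, and 11 had a differentiated-cell peak. At gene positions 4 of the 14 (28.6%) had a differentiated-cell peak, beside 48.4% of all genes. Aldoc, an aldolase of astrocytes, had 21.6 in differentiated cells. Of 16 neuron genes 1 had an isolated-cell and 9 a differentiated-cell peak in the span, and of 16 microglia genes 1 had an isolated-cell and 3 a differentiated-cell peak. At gene positions 5 of 16 neuron genes (31.25%) and 2 of 16 microglia genes (12.5%) had a differentiated-cell peak. Span counts grow with gene length. Its median was 14232.5 bp for astrocyte, 45004.5 bp for neuron, 9849 bp for microglia and 40313 bp for endothelial and mural genes, against 17169 bp for all genes. Among endothelial and mural genes 6 of 15 had an isolated-cell peak in the span and 4 of 15 a differentiated-cell peak, none shared. Those with an isolated-cell peak were Cldn5, Flt1, Cdh5, Esam, Tek and Pecam1, and of these Flt1 and Pecam1 also held differentiated-alone sites. Cldn5 had 5.95 and Flt1 5.50 at their starts in isolated cells. Abcc9 and Rgs5 had differentiated-alone sites only. Kdr, Tie1, Slco1a4, Ly6c1, Kcnj8, Pdgfrb and Vtn had no peak in either list. The part of other cell types in the 2 lists was not tested. Of 23 precursor and stem cell genes 3 had an isolated-cell and 7 a differentiated-cell peak at the gene position, none shared. Over the gene span 8 had an isolated-cell and 14 a differentiated-cell peak, with 1 shared. At gene positions Id1 had 11.9 in isolated cells alone, and Id4 and Sox6 had 16.6 each in differentiated cells alone. Over its whole span Sox6 held 2 isolated-alone and 13 differentiated-alone sites.

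Immediate-early genes are known to respond to a stimulus within minutes. Of 27 such genes 16 had an isolated-cell peak, 19 a differentiated-cell peak and 10 a shared site. Klf6 had 18.8 in isolated and 16.6 in differentiated cells, and Junb had 12.4 in isolated and 11.6 in differentiated cells. Egr1 (8.24), Egr3 (6.41) and Klf2 (9.16) had isolated-alone sites, and Jun (17.1), Jund (17.7) and Ier2 (18.8) differentiated-alone ones. Of 22 circadian clock genes 10 had an isolated-cell peak, 20 a differentiated-cell peak and 7 a shared site; Arntl, the clock's activator, had 22.4 in isolated and 29.3 in differentiated cells, and Per2, a repressor, had 19.2 in isolated and 12.7 in differentiated cells.

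Qk itself had an isolated-alone peak of 11.0 (7.04 to 16.4) 713 bp upstream of its start, and in differentiated cells a peak of 6.64 inside the gene and none at the start. Sf1, a splicing factor of the same STAR family, had unpaired peaks 229 bp apart, 12.8 in isolated and 21.6 in differentiated cells. None of the 5 STAR genes had a shared site at its gene position, although Khdrbs1 (Sam68) had one inside the gene, 20.2 in isolated and 18.8 in differentiated cells. Ppard had shared sites at its start, 7.79 in isolated and 10.5 in differentiated cells, and inside the gene, 6.87 in isolated and 13.8 in differentiated cells. Of the receptors that pair with it, Rxrb had a shared site at its start, 11.9 in isolated and 18.8 in differentiated cells. Rxra had 4 differentiated-alone sites of 12.2 to 18.8 and no isolated-cell peak. Of 28 nuclear receptors and coregulators 8 had an isolated-cell peak, 22 a differentiated-cell peak and 7 a shared site.

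Other proteins of the series were found at shared sites more often than at isolated-alone or differentiated-alone ones. An isolated-cell PPARb peak lay under 200 bp from 15.8% of shared sites (interval 14.9 to 16.8%), 5.48% of isolated-alone sites (4.63 to 6.43%) and 0.628% of differentiated-alone sites (0.533 to 0.736%). That library had 1391 peaks and 0.116% of its 18389111 tags in them, so it could show a peak at few of these sites. A differentiated-cell PPARb peak lay at 85.1% of shared, 19.1% of isolated-alone and 60.6% of differentiated-alone sites. Pol II of differentiated cells lay at 58.4% of shared, 14.0% of isolated-alone and 26.1% of differentiated-alone sites, and the HA tag at 84.1%, 23.0% and 62.4% in the same order. At gene positions the order stayed, with Pol II at 62.6% of shared sites, 302 of 864 isolated-alone and 2731 of 6065 differentiated-alone sites. The differentiated-cell lists share 1 input library, and shared and differentiated-alone sites are called in those cells by definition, so the lower shares at isolated-alone sites hold that selection too.

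Promoter letters were counted in 21263 RefSeq windows of 300 bases, from 250 before to 50 after a gene start, of which 3881 held a shared, 352 an isolated-alone and 3039 a differentiated-alone centre, 34 both kinds unpaired and 13957 none. The motifs, on both strands, were ETS CCGGAAG, NRF1 GCATGCGC, SP GGGCGG, NF-Y CCAAT, CRE TGACGTCA, E-box CACGTG, Zbtb33 TCTCGCGA, YY1 AAGATGGC, the TATA box (TATAAA), AP-1 TGANTCA, the receptor half-site AGGTCA, Quaking ACTAAC and SOX ACAAAG. The ETS letters were in 30.2% of shared windows (interval 28.8 to 31.7%), 14.5% of isolated-alone (11.0 to 18.6%) and 18.5% of differentiated-alone windows (17.1 to 19.9%), against 4.79% of windows without a Qki-5 peak and 11.6% of all windows. The NRF1 letters were in 8.84% of shared, 3.98% of isolated-alone and 5.66% of differentiated-alone windows, against 1.57% without a peak and 3.52% of all. All classes with a peak were rich in CpG, with a median of 25 per shared window, 24 per isolated-alone and 22 per differentiated-alone window, against 6 without a peak.

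Shared and alone windows did not separate by the SP letters, in 72.6% of shared, 69.9% of isolated-alone and 71.5% of differentiated-alone windows and 46.2% of all. The TATA letters were in 4.92% of shared, 8.52% of isolated-alone (5.82 to 11.9%) and 5.23% of differentiated-alone windows, against 12.6% of all. The Quaking letters, the DNA form of the core that the protein is known to bind in RNA, were in 4.43% of shared, 2.84% of isolated-alone (1.37 to 5.16%) and 4.44% of differentiated-alone windows, against 5.46% of all. The receptor half-site was in 9.53% of shared, 12.8% of isolated-alone and 9.54% of differentiated-alone windows, against 14.7% of all. For the YY1, CRE, Zbtb33, E-box, NF-Y, AP-1 and SOX letters the share in all windows was 3.05%, 2.23%, 1.41%, 7.84%, 38.2%, 6.99% and 16.8%, and in shared windows 6.80%, 4.95%, 4.12%, 13.2%, 40.2%, 3.12% and 10.7%, in that order. The part of CpG content in these shares was not tested.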

How the data were processed

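The submitters' processing notes name HOMER 4.10.1, Bowtie 1.2.2, SAMtools 1.8, bcl2fastq 2.19.1.403 and Trim Galore 0.4.4, and the build mm10. Per the file headers, the authors ran HOMER's peak caller in factor style (200 bp peaks, false discovery rate 0.001) and required 4-fold enrichment over the 10000 bp around a peak and, against input, 4-fold with Poisson p 0.0001. Peak height, a signal, was scaled by the authors to libraries of 10000000 tags, total tags are counts, fold over input and over the local background are ratios, and HOMER's tag concentration at the centre is a fraction, all deposited per peak and per the file headers. The tag directories of the isolated-cell input and differentiated-cell Qki-5 libraries carry the word merge, without saying what was merged.

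Peaks were paired by nearest centres, less than 200 bp apart, with Python 3.11.15, numpy 2.4.6, pandas 2.3.3 and scipy 1.17.1; 1 differentiated-cell peak was nearest to 2 isolated-cell peaks. Gene positions and promoter windows came from RefSeq tables of GRCm38.p6. Each of 20 gene lists (478 entries, 477 matched) was counted and not tested. Genes were named by rule: the 10 tallest peaks of each class at gene positions, the 10 shared sites with the largest percentile difference each way, up to 4 members per list and class, and 13 fixed genes. The members, lists and named genes were chosen with earlier results of these data known. With 1 library per group no test was made; intervals are 95% exact Clopper-Pearson for shares and exact Poisson for heights. The pairing was tested on simulated peaks planted with a gap around the pairing limit, so distances close to that limit were not tried. Alternatives changed the pairing distance, window, peak threshold and list length. Results for some genes are not reported here.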

Additional observations from a re-analysis of the deposited data

How the results depend on the processing

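No paired analysis was possible because each group has 1 library. Leaving out a replicate was not possible for the same reason. The share of isolated-cell peaks with a partner was 53.9% with centres less than 100 bp apart, 76.6% under 500 bp, 56.3% for peaks of at least 8-fold over input, 43.5% with lists of equal length and 39.2% for the 2000 tallest of each list; that of differentiated-cell peaks was 15.0%, 21.7%, 8.35%, 43.5% and 39.2% in the same order. With lists of equal length the shares match by construction, and the order of 69.5% and 19.3% is not kept. On autosomes alone the shares were 69.5% and 19.3%.

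The share at gene positions stayed highest at shared sites under each alternative run. It was 76.8%, 84.0%, 81.2% and 84.6% of shared sites with a 500 bp window, a 5000 bp window, 8-fold peaks and equal lists. For isolated-alone sites it was 29.3%, 44.6%, 41.6% and 51.1%, and 21.3% with centres less than 500 bp apart; for differentiated-alone sites 21.1%, 32.7%, 36.6% and 37.0%, and 23.4% under 500 bp. Genes with a shared site fell to 1536 with 8-fold peaks. Genes with isolated-alone sites and no differentiated-cell peak numbered 2150 with equal lists, and genes with differentiated-alone sites alone 1552. Genes with unpaired peaks of both lists numbered 94 with pairing under 500 bp, 179 with 8-fold peaks and 320 with equal lists. With both ends of every gene as positions, added after seeing the data, no count of genes moved by over 1.5 times.

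Spearman's rank correlation at shared sites was 0.0407 by fold over input, 0.58 by fold over the local background, 0.57 at gene positions and 0.37 elsewhere. Shared over alone median height, 1.43 in isolated and 1.61 in differentiated cells, became 1.00 and 1.26 by fold over input. Myelin genes with an isolated-cell peak and none shared numbered 8, 10 with a 5000 bp window and 13 by gene span; mature oligodendrocyte genes numbered 4, 7 by gene span and 7 with equal lists. With pairing under 500 bp, added after seeing the data, these stayed at 8 and 4, while over all genes the number was 362 against 825. Within 500 bp the other libraries' peaks, also added, were at 16.9%, 91.0%, 94.1% and 75.7% of shared sites (isolated PPARb, differentiated PPARb, HA, Pol II), 6.96%, 29.2%, 34.9% and 23.7% of isolated-alone and 1.01%, 66.7%, 70.4% and 31.8% of differentiated-alone sites. Ranked by fold over input, 13 of 20 named rank differences kept their direction; the percentile difference, isolated minus differentiated, reversed for Tmem202 (-2.13), Arl8b (-17.8), Csrp1 (-5.30), Trmt61a (-36.1), Sirt6 (-69.7), Ccno (9.20) and Pigk (31.8). The cause was not tested.

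Depth limits single heights: a median peak has 20 tags. A peak missing from a list was not detectable under its filters, and is not shown to be absent.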
